A study of Mus musculus with 46 samples.

Results

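Integrins are cell surface receptors, each made of an alpha and a beta subunit, that bind matrix proteins or counter-receptors on other cells and link them to the actin cytoskeleton. Ligand binding is switched on from inside the cell when talin and kindlin bind the tail of the beta subunit, and Src family kinases carry the signal onward. Microglia, the resident macrophages of the brain, are known for the leukocyte integrin CD11b/CD18, which is widely used to identify and sort them. The 9 integrin genes described here were chosen by symbol from 21231 genes listed in at least 1 of 3 expression tables. They are Itgam (CD11b), Itgal (CD11a) and their shared partner Itgb2 (CD18), then Itgav and Itgb5, which pair as the vitronectin receptor αvβ5, and then Itgb1 with its partners Itga4, Itga6 and Itga9.

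The study gave mice PLX3397, which blocks CSF1R, a receptor microglia need to stay alive, and followed how myeloid cells refilled the brain after the drug was withdrawn. In all, 46 RNA-seq libraries were made from wild-type C57BL/6 mice. The SVZ experiment sampled bulk tissue of the subventricular zone, a stem cell niche beside the lateral ventricle, from control mice, mice fed PLX3397 for 14 days (14 day PLX3397) and mice fed it for 14 days with the drug then withdrawn for 5 days (5 day recovery), with n = 5 each and no age given in the labels. The WM and LPS experiment sampled myeloid cells sorted from whole hemispheres as CD11b+CD45int, from mice that were 2 months old at the start. WM repopulating cells came from mice given PLX3397 for 14 days and 28 days of recovery, and control microglia from mice without the drug. Both were taken without LPS (0 hr), or at 6 hr or 24 hr after an intraperitoneal dose of 0.33 mg/kg of LPS, a bacterial lipopolysaccharide that sets off systemic inflammation. The groups held 3, 5 and 4 control libraries and 4 WM libraries at each time. The GLOBAL experiment sampled the same kind of sorted cells in 4 control libraries and in 3 libraries of mice given PLX3397 for 7 days and 28 days of recovery (GLOBAL repopulation), all of them 2 months old at the start. CD11b, the product of Itgam, was part of the sort gate, so a cell without it could not enter the sorted libraries, and Itgam and its partner Itgb2 in these cells were measured only within that gate.

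Values are FPKM, fragments scaled to gene length and to library size, so levels can be set beside each other between genes. Recovered read totals ran from 4.57 to 10.6 M in the SVZ libraries, from 5.24 to 10.4 M in the WM and LPS libraries and from 2.21 to 5.37 M in the GLOBAL libraries. All 9 genes were listed in both tables of sorted cells, whereas the SVZ table listed 8 of them, without Itgal. Of these, 6 passed the expression limit for testing in SVZ tissue, and Itga9 and Itga4 did not. The 12 microglial markers, C1qa among the most abundant in control SVZ tissue, were all listed in each table. Their summed FPKM was 284 to 386 in control SVZ tissue and 18339 to 34337 in sorted cells without LPS. SVZ control replicate 1 stood apart, with a summed FPKM of 21699 over 8 ependymal and choroid plexus markers against 55.1 to 157 in the other control libraries. Control 6 hr replicate 2 and control 24 hr replicate 4 were least like their own groups, with a median correlation of 0.939 and 0.949 to the other libraries of the group.

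Itgam and Itgb5 are printed with the 250 bases before their start site, since Itgam was lower in SVZ tissue after PLX3397 and Itgb5 was lower in both kinds of sorted cells at 6 hr after LPS. Itgam lies on the plus strand of chromosome 7 (GRCm38, 128062640 to 128118491) and Itgb5 on the plus strand of chromosome 16 (33829665 to 33949338). The capitals mark GAGGAA, or its reverse complement TTCCTC, a purine-rich core of the kind that ETS factors such as PU.1, a regulator of myeloid genes, bind. The sequences are from RefSeq, build GRCm38.p6, and are written 5′ to 3′.
Itgam, chr7:128062390-128062639: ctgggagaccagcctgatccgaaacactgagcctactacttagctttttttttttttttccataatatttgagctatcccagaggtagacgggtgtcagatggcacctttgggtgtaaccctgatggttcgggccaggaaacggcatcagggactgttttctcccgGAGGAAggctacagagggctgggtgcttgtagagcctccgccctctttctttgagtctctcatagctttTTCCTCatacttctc
Itgb5, chr16:33829415-33829664: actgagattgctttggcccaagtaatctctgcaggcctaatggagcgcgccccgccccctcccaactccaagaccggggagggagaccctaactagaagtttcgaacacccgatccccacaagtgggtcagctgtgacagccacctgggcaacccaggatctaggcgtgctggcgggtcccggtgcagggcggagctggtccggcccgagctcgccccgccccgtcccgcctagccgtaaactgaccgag
The Itgam sequence held the motif at positions -84 and -15 from the start site, once on each strand, and the Itgb5 sequence held none. Over both strands, 23.3% of the 32851 promoters in the table held it within the same 250 bases. RefSeq promoters were matched for 6 of the 9 genes, and Itgav and Itgb1 held the motif as well. The sequence matched for Itga9 (chr9:118711442-118711691) lay inside the gene, which starts at 118606690 on the plus strand in the annotation. It therefore does not cover the bases before that start.

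In the absence of LPS, Itgb2 and Itgb5 were the most abundant of the 9 genes in sorted cells and Itga4 the least. In control microglia at 0 hr (n = 3), mean FPKM ran in the order Itgb2 (283 ± 15.3, SD), Itgb5 (245 ± 2.55), Itgam (128 ± 17.4), Itgb1 (60.5 ± 2.79), Itga6 (29.4 ± 3.38), Itgav (15.7 ± 3.22), Itga9 (7.64 ± 0.617), Itgal (2.17 ± 1.23) and Itga4 (1.16 ± 0.410). Only the last 2 neighbours, Itgal and Itga4, had overlapping ranges. WM repopulating cells at 0 hr had the same order, and there only Itgb2 and Itgb5 overlapped. In GLOBAL control cells, Itgb5 (374 ± 132, n = 4) stood before Itgb2 (184 ± 27.9) and Itgam (173 ± 4.19), and Itgb2 overlapped Itgam, Itgb1 overlapped Itga6 and Itgal overlapped Itga9. The order in control SVZ tissue was another one, with Itgb1 (15.1 ± 1.85, n = 5), Itgb5 (8.33 ± 2.63) and Itgav (6.31 ± 0.747) before Itgam (3.33 ± 0.514) and Itgb2 (3.11 ± 0.604). The tables were normalized separately, so these orders were compared and the levels were not.

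**Figure D1:**
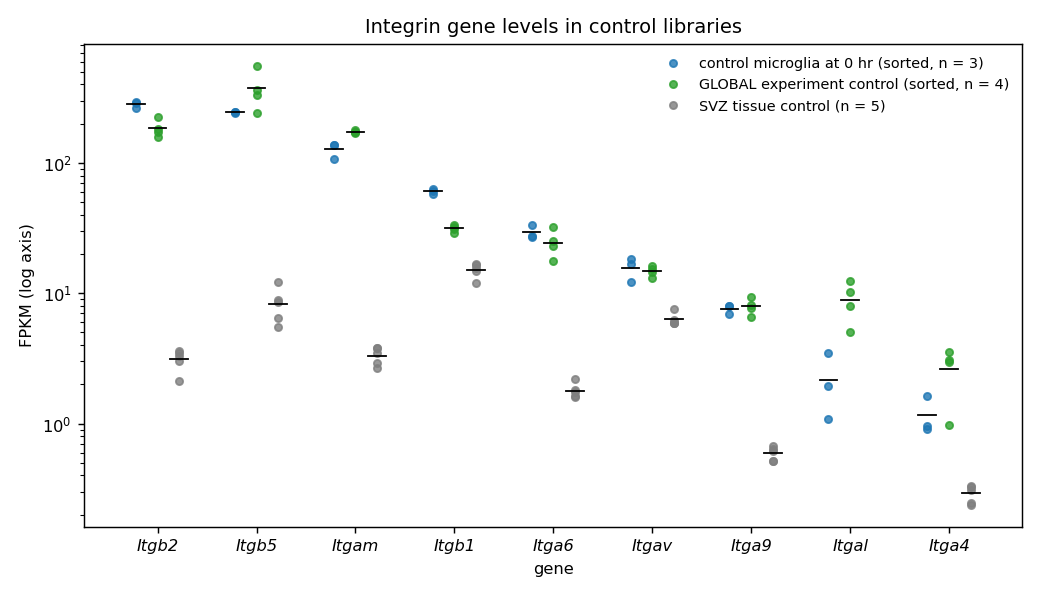
FPKM of the integrin genes on a log axis in libraries without PLX3397 or LPS: control SVZ tissue, control microglia at 0 hr and GLOBAL control cells, each point a library and each line a mean. Itgb2 and Itgb5 have the highest means in both sets of sorted cells, while Itgb1 has the highest in SVZ tissue, where Itgal is not listed.

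In SVZ tissue, the leukocyte integrin genes Itgam and Itgb2 fell to near the limit of detection after 14 days of PLX3397, and at 5 day recovery Itgb2 stood at a larger share of its control level than Itgam. Itgam had FPKM of 2.67, 3.46, 3.78, 2.91 and 3.81 in the control libraries, 487 reads in all. After 14 day PLX3397, the libraries had 0.0238, 0, 0, 0 and 0.155, or 5 reads in all, where a library with 0 reads allows up to 3 reads, or 0.0604 to 0.0670 FPKM. At 5 day recovery they had 0.238, 0.337, 0.147, 0.243 and 0.108, from 40 reads. Each PLX3397 and recovery library was below every control library. Fewer cells of a type and less RNA per cell cannot be told apart in bulk tissue. Mean Itgam was 1.08 ± 2.03% of control after 14 day PLX3397 and 6.45 ± 2.70% at 5 day recovery, where its libraries ran from 3.25 to 10.1%. The first share rests on 14 day PLX3397 replicate 5, which held 4 of the 5 reads, and was 0.179% without it and 3.30% with quantile normalization. On the log2(FPKM + 1) scale, which understates changes at these levels, it was lower by limma in both comparisons (-2.06, SE 0.10, adjusted p = 3.43e-10, and -1.83, adjusted p = 2.06e-09).

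Itgb2, whose product CD18 pairs with CD11b, had 2.11, 3.28, 3.50, 3.01 and 3.63 FPKM in the control libraries. It had 0.0777, 0.0329, 0, 0.110 and 0.190 after 14 day PLX3397 (9 reads in all, with a limit of 0.102 FPKM in the library at 0), and 0.584, 1.10, 0.521, 0.722 and 1.11 at 5 day recovery (93 reads). None of the 3 groups overlapped with another. Itgb2 stood at 2.64 ± 2.37% of control after 14 day PLX3397 (5.64% with quantile normalization) and 26.0 ± 9.04% (16.8 to 35.6%) at 5 day recovery. It was lower than control at both times, with log2 fold changes of -1.91 (SE 0.13, adjusted p = 2.26e-08) and -1.18 (adjusted p = 1.62e-05). Between 14 day PLX3397 and 5 day recovery it rose (log2 fold change 0.73, 95% interval 0.46 to 1.0, adjusted p = 0.0171). Without 14 day PLX3397 replicate 1, 2 or 3, or 5 day recovery replicate 5, this call was lost (adjusted p of 0.0515, 0.0659, 0.0589 and 0.0562), and it was also lost with quantile normalization (log2 fold change 0.64, adjusted p = 0.0809). For Itgam the log2 fold change of 0.23 between these groups was not called (adjusted p = 0.278). The study chose Itgb2 on these libraries, so its direction here is not independent evidence.

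Among the 12 microglial markers, the share of control had a median of 1.61% (0.144 to 77%) after 14 day PLX3397 and 5.11% (1.95 to 71.3%) at 5 day recovery. Itgam (1.08% and 6.45%) and Itgb2 at 14 day PLX3397 (2.64%) lay within a few percent of these medians, and Itgb2 at 5 day recovery (26.0%) lay above, where Olfml3 (26.1%), a secreted glycoprotein of microglia, stood at a like share. Neutrophils also carry Itgb2, and 2 of 11 neutrophil markers, S100a8 and S100a9, were listed in SVZ tissue. Their summed FPKM was 0.558 to 3.17 in control, 0 to 4.22 after 14 day PLX3397 and 1.71 to 15 at 5 day recovery. Of 5 erythrocyte markers, 4 were listed, and they summed to 32.4 to 79.3 in control, 41.8 to 57.9 after 14 day PLX3397 and 91.3 to 336 at 5 day recovery, where all libraries were above those of the other groups. Border-associated macrophage markers (4 of 9 listed) summed to 3.48 to 7.39 in control, 1.18 to 2.45 after 14 day PLX3397 and 1.22 to 2.97 at 5 day recovery. Monocyte markers (2 of 8 listed) summed to 1.43 to 2.13, 0.754 to 1.06 and 0.722 to 1.37. Both sets were below every control library in all libraries of the other groups, while astrocyte markers were above (medians of 492, 589 and 629). The part of these markers in the results for Itgam and Itgb2 was not tested.

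**Figure D2:**
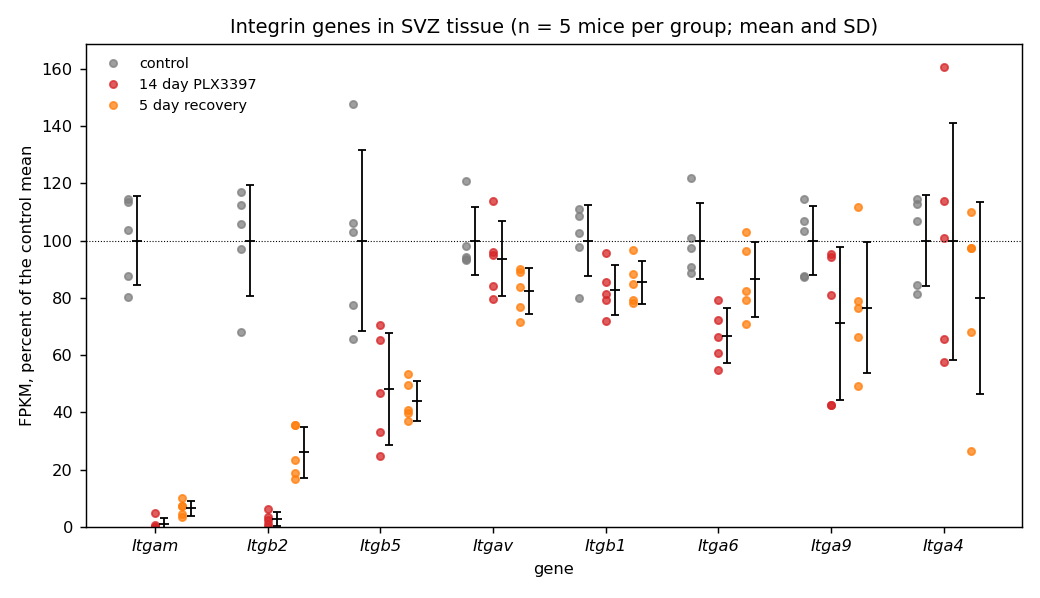
Percent of the control mean in SVZ tissue for the 8 listed integrin genes, each point a library, with the mean and SD of each group (n = 5). Itgam and Itgb2 average 1.08% and 2.64% of control after 14 day PLX3397, and at 5 day recovery they average 6.45% and 26.0%.

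Itgb5, the beta subunit of the vitronectin receptor, had 12.3, 6.46, 8.59, 5.47 and 8.84 FPKM in control SVZ tissue, 5.42, 3.91, 5.86, 2.07 and 2.77 after 14 day PLX3397, and 3.40, 3.07, 4.13, 4.44 and 3.32 at 5 day recovery. The 5 day recovery libraries were all below the control libraries, while those of 14 day PLX3397 overlapped them. Itgb5 was lower after 14 day PLX3397 (-0.92 in log2 fold change, SE 0.22, adjusted p = 0.0489) and at 5 day recovery (-0.96, adjusted p = 0.0349), at 48.1 ± 19.7% and 44.1 ± 7.0% of control. Its highest value was in SVZ control replicate 1, the library rich in choroid plexus markers, and without that library neither call held (-0.78, adjusted p = 0.140, and -0.82, adjusted p = 0.101). Both calls were also lost without SVZ control replicate 3 or 5, and that at 14 day PLX3397 without control replicate 2 or PLX3397 replicate 2, 4 or 5 (adjusted p from 0.0621 to 0.157), with a pseudocount of 0.1 (0.0567), without the variance trend (0.0517) and in a fit of only the groups compared (0.157). The call at 5 day recovery was lost without recovery replicate 1, 2 or 5 as well (0.0743 to 0.104) and with quantile normalization (0.0581). Itgav, its alpha partner, stood at 93.7 ± 13.1% and 82.3 ± 8.07% of control and was not called (adjusted p = 0.999 and 0.255).

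Itgb1, the partner of many alpha subunits and expressed by most cell types, stood at 82.7 ± 8.71% and 85.5 ± 7.57% of control (adjusted p = 0.565 and 0.299). Itga6, a laminin receptor subunit, had 1.59 to 2.18 FPKM in control and 0.979 to 1.42 after 14 day PLX3397, and its groups did not overlap, but it was not called (log2 fold change -0.35, 95% interval -0.55 to -0.14, adjusted p = 0.152). At 5 day recovery it stood at 86.5 ± 13%. Itga9 and Itga4, which bind osteopontin and VCAM-1 among other ligands, were below the limit for testing, with 71.1 ± 26.8% and 99.8 ± 41.4% of control after 14 day PLX3397 and 76.6 ± 22.9% and 79.9 ± 33.6% at 5 day recovery. In total, 3 of 6 tested integrin genes were lower after 14 day PLX3397, where 1.26% of 14151 tested genes were called, and 3 of 6 at 5 day recovery, where 1.27% were. Between these groups 1 gene, Itgb2, was higher, against 0.325% of all genes. Counting lower calls only, the shares of all genes were 1.21% and 1.09%, and 0.290% were higher between 14 day PLX3397 and 5 day recovery. Groups did not overlap for 3 of 6 genes after 14 day PLX3397 (2.77% of all genes), for 4 at 5 day recovery (3.1%) and for 1 between these groups (3.53%). The 2 comparisons with control share their control libraries. Itgam reached an FPKM of 1 only in control libraries. Itgb2 reached it in control and in 5 day recovery replicates 2 and 5 (1.10 and 1.11). Both thus passed the limit for testing through the group where they were high. Passing it in this way favours a lower call, so the counts beside all genes are not independent of the limit.

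The wider pathway in SVZ tissue gave further calls, all lower, where 1.21% of all tested genes were lower after 14 day PLX3397 and 1.09% at 5 day recovery. Of 22 talin, kindlin and adaptor genes, 20 were tested and 3 were lower in both comparisons with control, among them Fermt3, the kindlin of blood cells, with 3.47 ± 0.686 FPKM in control, 0.561 ± 0.130 after 14 day PLX3397 and 0.983 ± 0.142 at 5 day recovery. The others were Parvg (-0.85 and -0.94 in log2 fold change) and Apbb1ip (-0.72 and -0.63), whose call at 5 day recovery was lost without the libraries that stand apart (adjusted p = 0.0849). Mean FPKM of Parvg was 1.76 in control, 0.537 after 14 day PLX3397 and 0.444 at 5 day recovery. For Apbb1ip it was 1.25, 0.353 and 0.462. Such genes passed the expression limit of 1 through control, which favours a lower call, so these counts are not independent of the limit. Of 14 kinases and adaptors of integrin signalling, 11 were tested and 4 were lower, again in both, among them Fyb (-1.08 and -0.87), Lyn (-1.0 and -0.96) and Fyn (-0.47 and -0.61). Of 30 integrin ligands, 18 were tested, and F11r, the junctional adhesion molecule that binds CD11a/CD18, was lower in both (-1.21 and -0.98). Of 18 other integrin subunits, 7 were tested and limma called 0 in each comparison, with 1, 0 and 1 at an unadjusted p under 0.05.

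In sorted cells, the question was how control microglia and WM repopulating cells responded to LPS and whether they differed. In control microglia at 6 hr, Itgal and Itga4 rose and Itgb5, Itga6 and Itga9 fell. In WM repopulating cells at 6 hr, Itgal rose and Itgb5 and Itga9 fell. From 6 hr to 24 hr Itgb5 and Itga6 rose in both kinds of cells. Each time was compared with 0 hr in the same cells, and these comparisons share their 0 hr libraries.

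Itgal, whose product CD11a forms LFA-1 with CD18 and binds ICAM-1, had 3.50, 1.08 and 1.94 FPKM in control microglia at 0 hr, 10.8, 12.5, 14.6, 11.6 and 5.74 at 6 hr, and 10.1, 7.46, 9.0 and 6.27 at 24 hr. Every LPS library of control microglia exceeded every 0 hr library. It rose at 6 hr (log2 fold change 1.94, SE 0.30, adjusted p = 1.11e-05) and at 24 hr (1.59, SE 0.31, adjusted p = 0.000650). WM repopulating cells had 4.07, 4.67, 6.59 and 4.08 at 0 hr, 11.2, 14.1, 8.0 and 7.77 at 6 hr, and 6.12, 10.8, 9.87 and 3.94 at 24 hr, and Itgal rose at 6 hr (0.93, SE 0.29, adjusted p = 0.0123; 0.0533 without WM 6 hr replicate 2) but was not called at 24 hr (0.51, 95% interval -0.08 to 1.10, adjusted p = 0.233). At 0 hr its WM libraries were all above those of control microglia (log2 fold change 0.93, 95% interval 0.30 to 1.57), but it was not called (adjusted p = 0.164). The difference between WM and control responses at 6 hr was -1.01 (95% interval -1.86 to -0.16) and was not called (adjusted p = 0.641), nor was that at 24 hr (-1.08, adjusted p = 0.429).

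Markers of other leukocytes in these libraries moved as well. All 11 neutrophil, 8 monocyte and 10 T and NK cell markers were listed, and none was at 0 in all libraries of a group. Monocyte markers, Plac8 and Ly6c2 the most abundant, summed to 125 to 381 FPKM in control microglia at 0 hr, 1478 to 3025 at 6 hr and 513 to 632 at 24 hr, and in WM repopulating cells to 151 to 459, 1555 to 3995 and 167 to 777. Neutrophil markers summed to 1839 to 9114, 923 to 5822 and 6444 to 15340 in control microglia and 2937 to 11150, 448 to 10312 and 3197 to 7245 in WM repopulating cells. T and NK cell markers summed to 12.4 to 29.9, 40.5 to 164 and 34.7 to 59.9 in control microglia, and to 25.0 to 47.9, 53.8 to 163 and 22.2 to 161 in WM repopulating cells. These cells carry Itgal, and the CD11b+CD45int gate is meant to leave out leukocytes high in CD45 and cells without CD11b. Their part in the result was not tested.

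**Figure D3:**
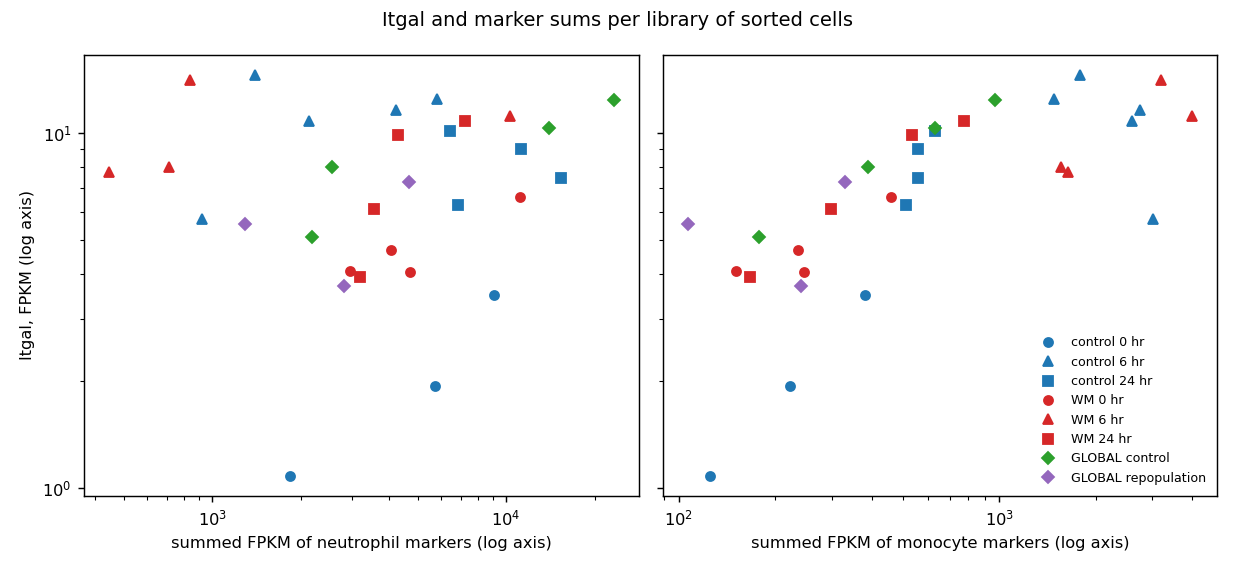
Itgal FPKM in each sorted library, including the GLOBAL libraries, whose table was normalized separately, against the summed FPKM of neutrophil markers (left) and monocyte markers (right), on log axes, with groups by colour and shape. Libraries of the WM and LPS experiment at 6 hr have the highest monocyte sums, from 1478 to 3995, and include the highest Itgal value, 14.6.

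Itgam, the other CD18 partner, had 108, 138 and 138 FPKM in control microglia at 0 hr, 174, 140, 163, 156 and 146 at 6 hr, and 217, 205, 206 and 190 at 24 hr. All 24 hr libraries were above all others of control microglia. It rose at 24 hr against 0 hr (log2 fold change 0.68, SE 0.16, adjusted p = 0.00423) and against 6 hr (0.39, SE 0.14, adjusted p = 0.0433), while at 6 hr it was not called (0.29, adjusted p = 0.146). The call from 6 hr to 24 hr was lost without control 6 hr replicate 2, 4 or 5 or control 24 hr replicate 1, 2 or 3 (adjusted p from 0.0669 to 0.0972), with the replicate number as a block (0.0863), with quantile normalization (0.0865), without the variance trend (0.0580) and without the libraries that stand apart (0.0803). WM repopulating cells had 132, 119, 132 and 134 at 0 hr, 160, 158, 127 and 137 at 6 hr, and 185, 93.3, 157 and 159 at 24 hr. No change was called, except at 24 hr without WM 24 hr replicate 2, the library with 93.3 (0.36, adjusted p = 0.0404). At 24 hr the WM libraries were all below those of control microglia (log2 fold change -0.50, 95% interval -0.81 to -0.19, adjusted p = 0.0630). Itgb2 was not called in any comparison of sorted cells with all libraries, but without control 24 hr replicate 4 it was called at 24 hr against 0 hr (0.51, adjusted p = 0.0485) and 6 hr (0.44, adjusted p = 0.0438). Its lowest and highest library were 228 and 434 FPKM in control microglia at 24 hr, and 285 and 456 in WM repopulating cells at 24 hr. At 0 hr its 4 WM libraries, 310 to 383, were above the control range of 266 to 295 (log2 fold change 0.33, 95% interval -0.08 to 0.75, adjusted p = 0.545). The ratio of Itgam to Itgb2 was 0.451 ± 0.039 in control microglia and 0.364 ± 0.048 in WM repopulating cells at 0 hr, and 0.599 ± 0.157 and 0.384 ± 0.147 at 24 hr. The leukocyte markers described beside Itgal moved between these groups too. Summed neutrophil markers had medians of 5717, 2138 and 9068 FPKM in control microglia at 0 hr, 6 hr and 24 hr. In WM repopulating cells these medians were 4387, 777 and 3922. The part of leukocyte markers in the results for Itgam and Itgb2 was not tested.

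Itgb5 had 248, 243 and 244 FPKM in control microglia at 0 hr, 128, 61.7, 160, 89.1 and 124 at 6 hr, and 180, 225, 201 and 184 at 24 hr. Its 6 hr libraries were all below the 0 hr and 24 hr libraries. It fell at 6 hr (log2 fold change -1.19, SE 0.20, adjusted p = 4.62e-05) and rose from 6 hr to 24 hr (0.87, SE 0.19, adjusted p = 0.00105). The WM libraries had 266, 316, 333 and 328, then 140, 153, 189 and 194, then 251, 248, 271 and 337, and Itgb5 fell at 6 hr (-0.88, adjusted p = 0.000937) and rose to 24 hr (0.71, adjusted p = 0.0147), a call lost without WM 6 hr replicate 1 or WM 24 hr replicate 4 (0.0514 and 0.0579). The 12 microglial markers together were also lower at 6 hr, with summed FPKM of 28353 to 33352 at 0 hr, 13057 to 15454 at 6 hr and 15128 to 24174 at 24 hr in control microglia, and 29227 to 34337, 14425 to 16994 and 19482 to 26147 in WM repopulating cells. Border-associated macrophage markers summed to 46.1 to 151, 19.8 to 29.4 and 55.2 to 67.8 in control microglia and 24.4 to 50.0, 12.8 to 24.5 and 21 to 42.4 in WM repopulating cells. The 3 B cell markers listed, of 6, summed to 46.6 to 56.7, 5.0 to 13.3 and 26.8 to 35.5 in control microglia and 9.66 to 19.5, 2.60 to 9.46 and 6.38 to 9.01 in WM repopulating cells. Oligodendrocyte markers (7 of 8 listed) summed to 31.2 to 39.2 at 0 hr and 19 to 27.3 at 6 hr in control microglia. The part of these markers in the changes of Itgb5, Itga6 and Itga9 was not tested. At 24 hr all WM libraries were above the control libraries, and the difference was not called (0.48, 95% interval 0.08 to 0.88, adjusted p = 0.187), as at 6 hr (0.64, 95% interval 0.26 to 1.03, adjusted p = 0.166). Itgav had 10.8 to 25.6 FPKM over all control microglia libraries and was called in no comparison with all libraries. Without control 6 hr replicate 2, its highest 6 hr library, it was called from 6 hr to 24 hr (0.48, adjusted p = 0.0331).

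**Figure D4:**
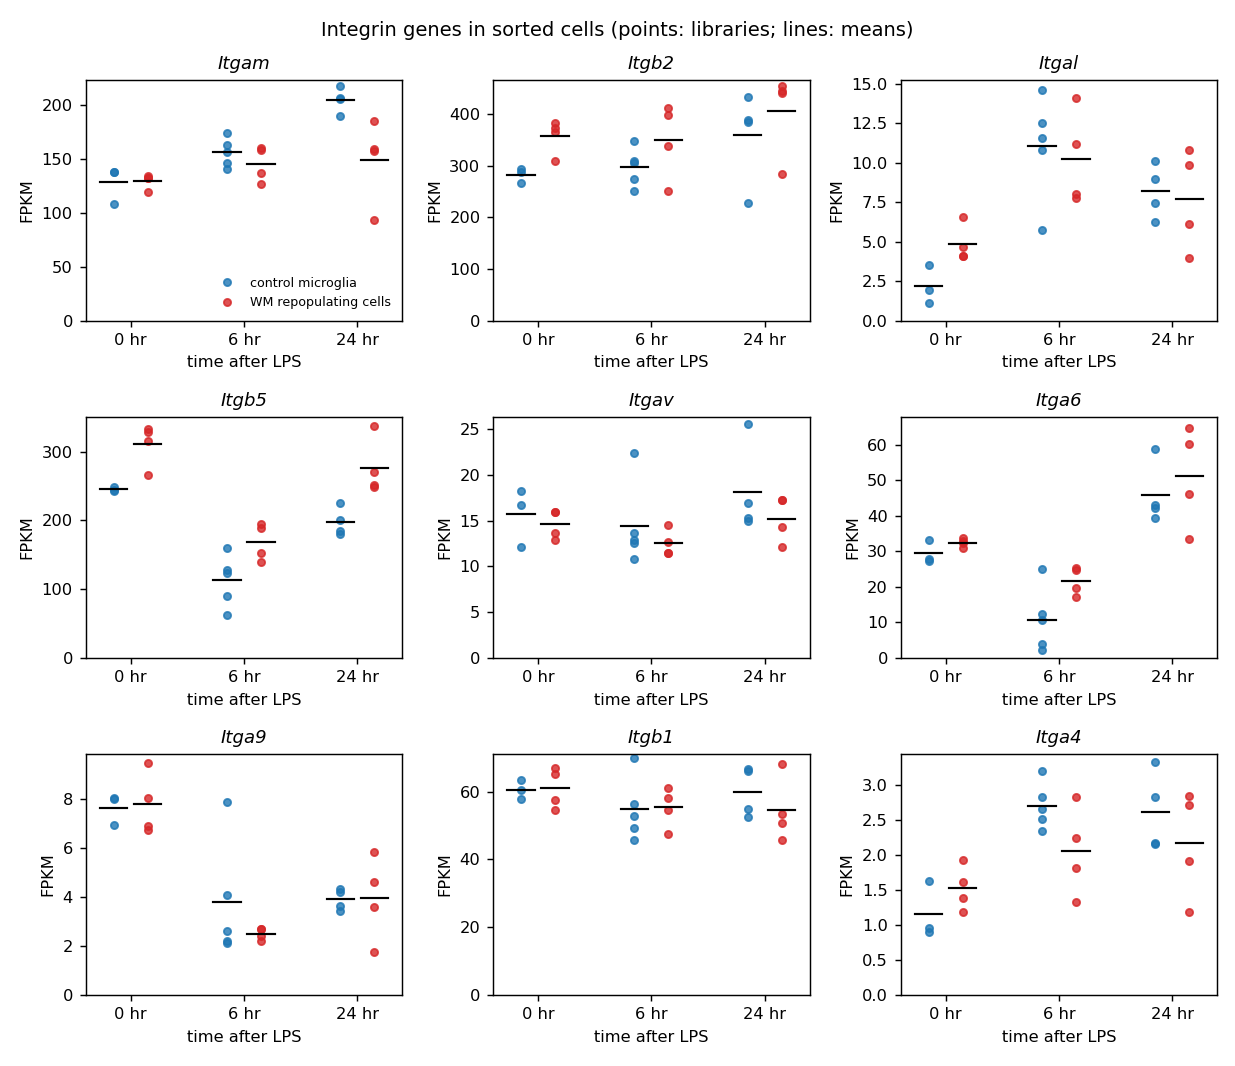
FPKM of each integrin gene in each sorted library at 0 hr, 6 hr and 24 hr after LPS, control microglia and WM repopulating cells side by side on linear axes from 0, with lines at the means. Itgb5 is lower at 6 hr in both kinds of cells, and Itga6 is lowest at 6 hr in control microglia, from 2.16 to 24.9 FPKM.

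The beta1 partners differed in direction from each other, while Itgb1 held 45.7 to 69.9 FPKM in control microglia and 45.7 to 68.1 in WM repopulating cells and was called in no comparison. Itga6 had 33.3, 27.7 and 27.2 FPKM in control microglia at 0 hr, 10.5, 2.16, 24.9, 3.81 and 12.4 at 6 hr, and 39.5, 42.2, 43.0 and 58.8 at 24 hr. The 3 groups did not overlap, and the 6 hr libraries were the most spread. It fell at 6 hr (log2 fold change -1.74, SE 0.40, adjusted p = 0.00117) and rose from there to 24 hr (2.36, SE 0.37, adjusted p = 4.76e-05). The WM libraries had 32.4, 32.9, 30.8 and 33.8 at 0 hr, 25.3, 17.1, 19.6 and 24.6 at 6 hr, and 60.4, 33.6, 46.3 and 64.8 at 24 hr. The 6 hr libraries were below the 0 hr libraries, but the change was not called (-0.58, 95% interval -1.38 to 0.23, adjusted p = 0.252), while the rise from 6 hr to 24 hr was (1.18, adjusted p = 0.0408). In a fit of only the groups compared, the change at 6 hr was called (adjusted p = 0.00435), as was that at 24 hr against 0 hr in WM repopulating cells (0.60, adjusted p = 0.0315) and in control microglia (0.61, adjusted p = 0.0401). The call from 6 hr to 24 hr was lost when any library of these groups but WM 24 hr replicate 2 was left out (adjusted p from 0.0525 to 0.111), with a pseudocount of 0.1 (0.0660) and with no expression limit (0.0520). The difference between the responses of both kinds of cells at 6 hr was 1.16 and was not called (adjusted p = 0.692), and the direct comparison of both kinds of cells at 6 hr gave 1.30 (95% interval 0.54 to 2.07, adjusted p = 0.152). Without control 6 hr replicate 3, the library with 24.9 FPKM, the last comparison was called for Itga6 (1.68, adjusted p = 0.00865) and for Itgb5 (0.79, adjusted p = 0.0366).

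Itga9 had 6.92, 7.97 and 8.02 FPKM in control microglia at 0 hr, 2.20, 7.88, 4.08, 2.59 and 2.10 at 6 hr, and 4.19, 3.43, 4.31 and 3.63 at 24 hr. It fell at 6 hr (log2 fold change -0.98, SE 0.28, adjusted p = 0.00604), and at 24 hr it was lower (-0.82, SE 0.29, adjusted p = 0.0439), a call lost whichever library of these groups was left out (0.0564 to 0.114). Replicate 2 at 6 hr, the library least like its group, had 7.88 and the others 2.10 to 4.08. The WM libraries had 8.05, 9.44, 6.90 and 6.73, then 2.19, 2.70, 2.69 and 2.41, then 3.57, 1.73, 4.62 and 5.82, and Itga9 was lower at 6 hr (-1.32, SE 0.27, adjusted p = 0.000358) and at 24 hr (-0.90, SE 0.27, adjusted p = 0.0198; 0.0623 without WM 0 hr replicate 2 and 0.0960 without WM 24 hr replicate 2). Itga4, which pairs with Itgb1 as VLA-4, the receptor of VCAM-1, had 1.63, 0.901 and 0.951 in control microglia at 0 hr, 2.34 to 3.20 at 6 hr, and 2.15 to 3.32 at 24 hr, and rose at both times (0.79, SE 0.20, adjusted p = 0.00270, and 0.75, SE 0.21, adjusted p = 0.0126; the second was lost without control 0 hr replicate 2 or 3, 0.0632 and 0.0579). WM repopulating cells had 1.18 to 1.92, 1.33 to 2.83 and 1.19 to 2.84, and no change was called (0.26, adjusted p = 0.303, and 0.30, adjusted p = 0.304). In control microglia, monocyte markers and T and NK cell markers, with the sums given beside Itgal, were also higher at 6 hr and 24 hr than at 0 hr. The part of these markers in the Itga4 result was not tested.

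In counts, 5 of 9 integrin genes were called in control microglia at 6 hr, against 42.5% of 12684 tested genes, 4 at 24 hr, against 21.3%, and 3 from 6 hr to 24 hr, against 28.3%. In WM repopulating cells 3, 1 and 2 were called, against 38.8%, 18.8% and 15.7%. Between WM and control cells at the same time, limma called 0 of the 9 genes at 0 hr, 6 hr and 24 hr (1.21%, 0.323% and 3.97% of all genes), with 1, 2 and 2 at an unadjusted p under 0.05. Groups did not overlap for 3, 0 and 2 of the 9 genes (13.6%, 3.78% and 12.1% of all genes). After LPS they did not overlap for 5, 6 and 3 genes in control microglia (38.1%, 29.5% and 21%) and 4, 1 and 2 in WM repopulating cells (39.9%, 25.1% and 23.1%). For the difference between WM and control responses it also called 0 (0.0237%, 0.0867% and 0.158%), with 2, 2 and 1 at an unadjusted p under 0.05.

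**Figure D5:**
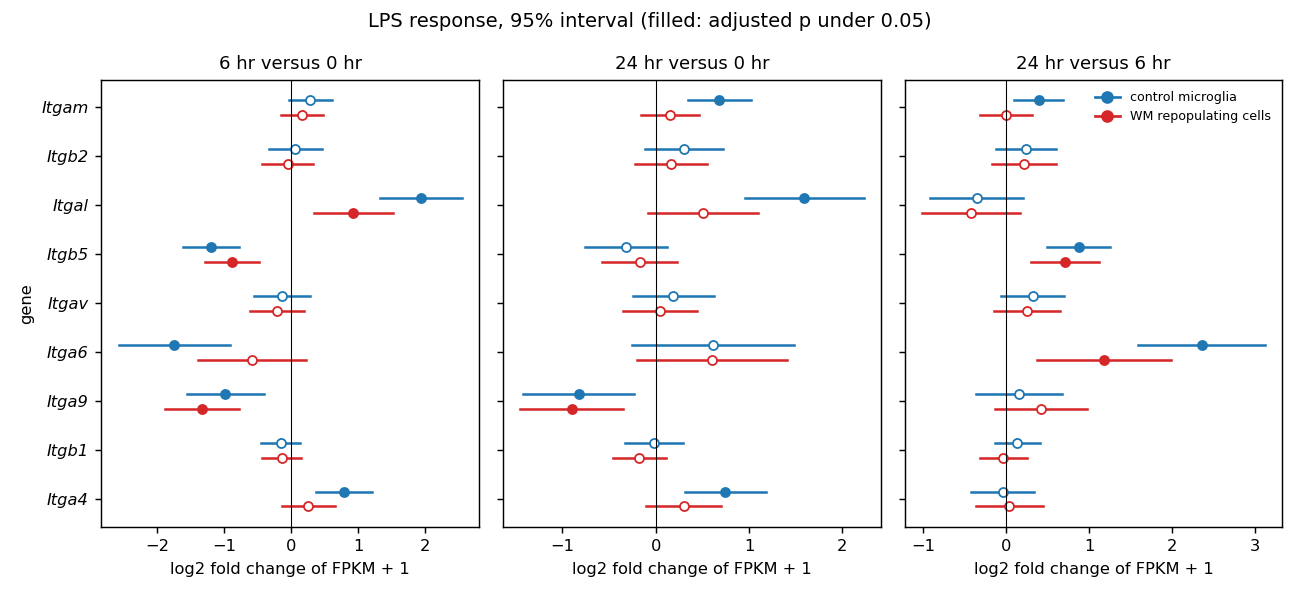
Log2 fold change of each integrin gene on the log2(FPKM + 1) scale at 6 hr and 24 hr against 0 hr and at 24 hr against 6 hr after LPS, in control microglia and WM repopulating cells, with 95% intervals and filled points where called. Itgal is above 0 at 6 hr against 0 hr in both kinds of cells (1.94 and 0.93), and Itgb5 (-1.19 and -0.88) and Itga9 (-0.98 and -1.32) are below 0.

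In the GLOBAL experiment, no integrin gene was called between GLOBAL repopulation and control, where limma called 0 of 16651 genes (0%), and 1504 genes but none of the 9 had an unadjusted p under 0.05. Itgam had 179, 169, 173 and 172 FPKM in control cells and 189, 191 and 184 in GLOBAL repopulation. These ranges did not overlap, as for 9.96% of all genes, with a log2 fold change of 0.12 (95% interval -0.13 to 0.37, adjusted p = 0.768). Itgal had 12.4, 10.3, 8.0 and 5.08 in control cells and 7.28, 3.70 and 5.55 in GLOBAL repopulation (-0.59, 95% interval -1.22 to 0.04, adjusted p = 0.572), beside neutrophil marker sums of 2179 to 23243 and 1292 to 4675 FPKM. Itgb5 was 241 to 555 and 413 to 433, and Itga6 17.7 to 32.1 and 26.7 to 33.4. The other 5 genes had log2 fold changes between -0.27 (Itga4) and 0.16 (Itgb2). Some marker sums were lower in all GLOBAL repopulation libraries than in control. These were border-associated macrophage (36.3 to 52.0 in control and 22.4 to 27.6), B cell (20.4 to 36.0 and 14.9 to 17.7), endothelial (18.55 to 31.7 and 11.5 to 18.47) and astrocyte markers (28.9 to 31.2 and 23.5 to 27.7). Monocyte sums overlapped (178 to 968 and 107 to 331). The part of these markers was not tested.

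Counts of called genes in the wider integrin pathway at 6 hr after LPS stand beside 42.5% of all 12684 tested genes called in control microglia and 38.8% in WM repopulating cells, either direction. Of 18 other integrin subunits, 7 were tested, and in control microglia at 6 hr 3 rose and 3 fell. Itga5, the fibronectin receptor subunit, went from 5.76 ± 0.902 to 44.6 ± 24.4 FPKM (log2 fold change of 2.62 with an adjusted p of 1.44e-07), and Itgb7 rose by 1.66 while Itgb3 fell by 1.30. In WM repopulating cells Itga5 rose by 1.95 and Itgb7 by 0.74, and Itgb3 fell by 1.55. Of 22 talin, kindlin and adaptor genes, 18 were tested, with 4 higher and 5 lower in control microglia and 3 and 5 in WM repopulating cells at 6 hr. Tln2, a talin, had the smallest adjusted p of these, with 9.04 ± 0.741 FPKM at 0 hr and 0.477 ± 0.455 at 6 hr in control microglia (-2.81) and a log2 fold change of -2.78 in WM repopulating cells. Of the 14 kinases and adaptors, 13 were tested and 8 rose in control microglia at 6 hr with none lower, among them Fgr (3.39), a Src family kinase of myeloid cells. In WM repopulating cells 5 rose and 1 fell. Of the 30 ligands, 19 were tested. Spp1, which encodes osteopontin, rose by 4.77 in control microglia and 6.13 in WM repopulating cells at 6 hr, and Jam2 fell by 2.28 and 2.31. Jam3, a ligand of CD11b/CD18, was lower in WM repopulating cells than in control microglia at 0 hr (-1.92), 6 hr (-1.49) and 24 hr (-1.14). The 4 endothelial markers listed, of 8, summed to 8.98 to 13.4 FPKM in control microglia and 4.55 to 7.29 in WM repopulating cells at 0 hr, 7.87 to 15.9 and 6.12 to 8.37 at 6 hr, and 8.66 to 14.3 and 3.21 to 8.84 at 24 hr. The B cell markers, with the sums given beside Itgb5, were lower in all WM libraries than in all control libraries at 0 hr and 24 hr. Border-associated macrophage markers at 24 hr (55.2 to 67.8 and 21 to 42.4), astrocyte markers at 0 hr (53.2 to 57.3 and 36.0 to 50.7) and ependymal and choroid plexus markers at 24 hr (36.3 to 55.9 and 12.2 to 32.6) were also lower in all WM libraries, while the last were higher at 0 hr (76.5 to 222 and 283 to 740). The part of these markers in the Jam3 difference was not tested. Fn1, which encodes fibronectin, was higher in WM repopulating cells at 24 hr (1.86), with 13.8 ± 2.87 against 3.37 ± 2.10 FPKM. 

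Across the 24 sorted libraries of the WM and LPS experiment, which share their sort gate and differ in time after LPS and in depth, the genes most like each integrin gene were found by Pearson's r on log2(FPKM + 1), given as a description. For Itgb5 these were Plcb2 (0.97), Nfix (0.95) and P2rx7 (0.95), and for Itga6 an unnamed gene (0.96), Arhgap25 (0.93) and Cep250 (0.93). Itgal had Relt (0.88), Fgr (0.87) and Cfp (0.87), and Itgb2 had H2-T23 (0.92). Among the 9 genes, Itgb5 and Itga6 had an r of 0.84 and Itgal and Itga4 one of 0.80, while Itgal and Itga9 had -0.62 and Itgb5 and Itga4 -0.61. In the annotation, exons of Itgam overlap Gm49368, those of Itgav overlap Gm13684 and those of Itga4 overlap Cerkl, and the strand of the libraries was not stated.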

How the data were processed

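RNA was sequenced from bulk SVZ tissue (15 libraries), from sorted CD11b+CD45int cells with and without LPS (24) and from sorted cells of the GLOBAL experiment (7). Per the methods and the submitters' processing notes, the authors aligned reads to mm10 with STAR, counted them with featureCounts, normalized with edgeR and limma, and deposited FPKM values, 1 table for each experiment. The strand setting was not given in the sources used here. The labels and the methods describe different library protocols. Counts were not used here, so read totals and reads per gene were recovered from the steps of low FPKM values, and 7 SVZ libraries whose steps were all even were halved.

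Samples were grouped by their labels, and columns by their names. There were 0 pairs of identical libraries and 0 unused columns. The expression limit was an FPKM of 1 or more in 3 or more libraries of a table. Tests used limma 3.58.1 (R 4.3.3) and log2 values of FPKM plus a pseudocount of 1, with all groups of a table in 1 fit, a variance trend and Benjamini-Hochberg adjustment over all genes tested. Genes with an adjusted p under 0.05 were called. Tests are 2-sided, and p-values measure the spread between the samples, which the labels do not tie to separate mice. Intervals from reads cover counting error only. The replicate number was not used as a block. Since each table had its own normalization, groups were compared only inside a table.

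The 9 integrin genes, the pathway lists and the markers were chosen with earlier results of these data known. The 9 genes are named in every comparison, up to 4 genes with the smallest adjusted p from each other list, the most abundant markers, and the 3 genes most like each integrin gene, and a few genes that these rules name are not reported here. Alternatives were a pseudocount of 0.1, no expression limit, quantile normalization, no variance trend, only the groups compared, the replicate number as a block, and leaving out each library. The removal of libraries that stand apart was added after seeing the data. The plots were drawn with matplotlib 3.10.9.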

Additional observations from a re-analysis of the deposited data

Results flagged for a closer look

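In 78 groups of 4 or 5 libraries tested, 5 had an integrin value far from the rest of its group, and chance flags about 5% of groups. Itgam was high in 14 day PLX3397 replicate 5 of SVZ tissue (0.155 FPKM, against 0 to 0.0238 in the other 4), and Itgav was high in SVZ control replicate 4 (7.63, against 5.89 to 6.20). In sorted cells, Itgam was low in WM 0 hr replicate 2 (119), Itgb2 was low in WM 24 hr replicate 4 (285), and Itgav was high in control 6 hr replicate 2 (22.4, against 10.8 to 13.6), the library least like its group.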

How the results depend on the processing

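Of 936 values of single genes under the settings other than leaving out a library, 916 kept their side of the threshold, 16 lost their call and 4 gained one, and of 1323 values with a library left out, 1272 kept it, 44 lost it and 7 gained one. No called value changed sign. With a pseudocount of 0.1, the log2 fold changes of low genes in SVZ tissue were larger (Itgam -4.75 and -3.48, Itgb2 -4.21 and -1.85 against control). The number of integrin genes called from 14 day PLX3397 to 5 day recovery was 0 with quantile normalization instead of 1. In WM repopulating cells, 2 instead of 1 were called at 24 hr against 0 hr and 4 instead of 3 at 6 hr when only the groups compared were fitted, with Itga6 as the added gene each time, and 1 instead of 2 at 24 hr against 6 hr with a pseudocount of 0.1 and with no expression limit. Leaving out a library gave 0 to 1 for 5 day recovery against 14 day PLX3397, 0 to 2 for WM against control at 6 hr, 0 to 1 for WM against control at 24 hr, 2 to 4 for control at 24 hr against 0 hr, 0 to 1 for WM at 24 hr against 0 hr and 0 to 2 for WM at 24 hr against 6 hr. Without WM 24 hr replicate 1, Itgam in WM against control at 24 hr was called (-0.62, adjusted p = 0.0255). Without the libraries that stand apart, an alternative chosen after seeing the data, 2 instead of 3 genes were called in each SVZ comparison with control, 5 instead of 4 in control microglia at 24 hr against 0 hr and 2 instead of 3 from 6 hr to 24 hr, with the same number in the other comparisons. With the replicate block, 3 instead of 4 genes were called in control microglia at 24 hr against 0 hr and 2 instead of 3 from 6 hr to 24 hr, and the block changed the number called in no other comparison. The genes that lost their call were Itga9 and Itgam. Deviations from group means of same-numbered libraries correlated by -0.155 to 0.486 in SVZ, -0.190 to 0.266 in WM and LPS and 0.0562 to 0.137 in GLOBAL, against -0.480 to 0.289, -0.276 to 0.312 and -0.141 to 0.0910 for other pairs. The medians were 0.0539, -0.00106 and 0.102 for same-numbered pairs and -0.00713, -0.00368 and -0.0411 for other pairs. The 2 kinds of pairs overlapped in each table, which does not decide whether the number pairs libraries. It was therefore used as a block only among the alternatives. Itga9 in control microglia at 24 hr lost its call with a pseudocount of 0.1 (adjusted p = 0.0616), no expression limit (0.0565) and the block (0.0611). Depth limits Itgam and Itgb2 after 14 day PLX3397, which rest on 5 and 9 reads.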
